A study of Mus musculus with 2 samples.

Results

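The carbonic anhydrases are a family of genes, of which 10 were described here: Car1, Car2, Car3, Car4, Car5a, Car8, Car9, Car12, Car13 and Car14. They were found by their gene symbols among the 18194 named genes of a mouse expression array, and all 10 were present, with 20 probe sets between them. The family was chosen by FLS/DS ratios of these same 2 arrays, on which the probe sets of Car3 had been seen to disagree, so that the values of Car3 are a description. Liver messenger RNA was measured in 1 pool of 3 FLS mice, an inbred strain that develops fatty liver and served as the model of nonalcoholic steatohepatitis (NASH), and in 1 pool of 3 DS mice, the related inbred strain used for reference, which stood for simple steatosis. All mice were 19 weeks old, ate the same standard pellet diet, and had their livers perfused with saline to remove blood. The labels name no transgene, allele or drug treatment under study. Each pool was hybridized to 1 Affymetrix mouse genome expression array. Strain background and disease cannot be told apart.

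Carbonic anhydrases interconvert carbon dioxide and water with bicarbonate and a proton, most of them with a zinc ion at the active site. They differ in where they act: some are cytosolic, one group is mitochondrial, and others are anchored in the plasma membrane with the active site facing outward. In liver, bicarbonate from the mitochondrial enzyme feeds the first step of the urea cycle and the carboxylation of pyruvate. Car3 encodes a cytosolic form with low activity toward carbon dioxide that is very abundant in rodent liver, skeletal muscle and fat, and its protein carries reactive cysteines that become glutathionylated under oxidative stress. In rats its hepatic level is higher in males and depends on growth hormone.

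What was deposited is a linear signal intensity for each probe set, a group of short oligonucleotides that match a transcript. The median signal of the array was 120 in FLS against 125 in DS livers. A gene was taken as measured if its signal was at least 200 in 1 pool or both, and a signal below 200 turned the ratio into a bound. For a gene with several probe sets, the one brightest on average over the pools was used, and fold changes are FLS/DS ratios. There is 1 array per strain and hence no replicate: differences could not be checked against a spread, and p-values were not computed. Signals of different probe sets depend on their oligonucleotides and were not compared as levels between genes. In whole liver, fewer cells of a type and less RNA per cell cannot be told apart. The 11 hepatocyte markers on the array had ratios between 0.989 and 1.12, the highest for the regulator gene Hnf4a, so both pools carried the defining transcripts of liver. Dividing by the ratio of Actb in place of the deposited scaling raised every log2 ratio by 0.21, a shift that applies to all raw ratios below. Bounds, and medians or counts over measured genes, can change by another amount, because signals may cross the limit of 200.

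Of the 10 carbonic anhydrases, 5 were measured, each in both pools: Car1, Car3, Car5a, Car8 and Car14. On their brightest probe sets none was at least 2-fold higher in FLS livers and none at least 2-fold lower. Among all 9160 measured genes, 1.46% were higher by 2-fold or more and 1.08% lower by as much, so a count of 0 among 5 genes is near the background. Their ratios ran from 0.761 for Car1 to 1.09 for Car8, and their median was -0.15 on the log2 scale, against 0.03 for the whole set of measured genes. Division by Actb turned that median to 0.05, with 0.22 for the whole set. The other 5 members, Car2, Car4, Car9, Car12 and Car13, stayed below 200 in both pools on every probe set. The pattern changed at the level of single probe sets. Of the 20, 9 were measured, and 2 of these, both of Car3, had a ratio of 2 or more, while none had a ratio of 0.5 or less. Over all 15640 measured probe sets of the array, 1.39% were higher by 2-fold or more and 1.11% lower by as much. As the disagreement of the Car3 probe sets was among the reasons for choosing the family, nothing is read from this count.

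**Figure D1:**
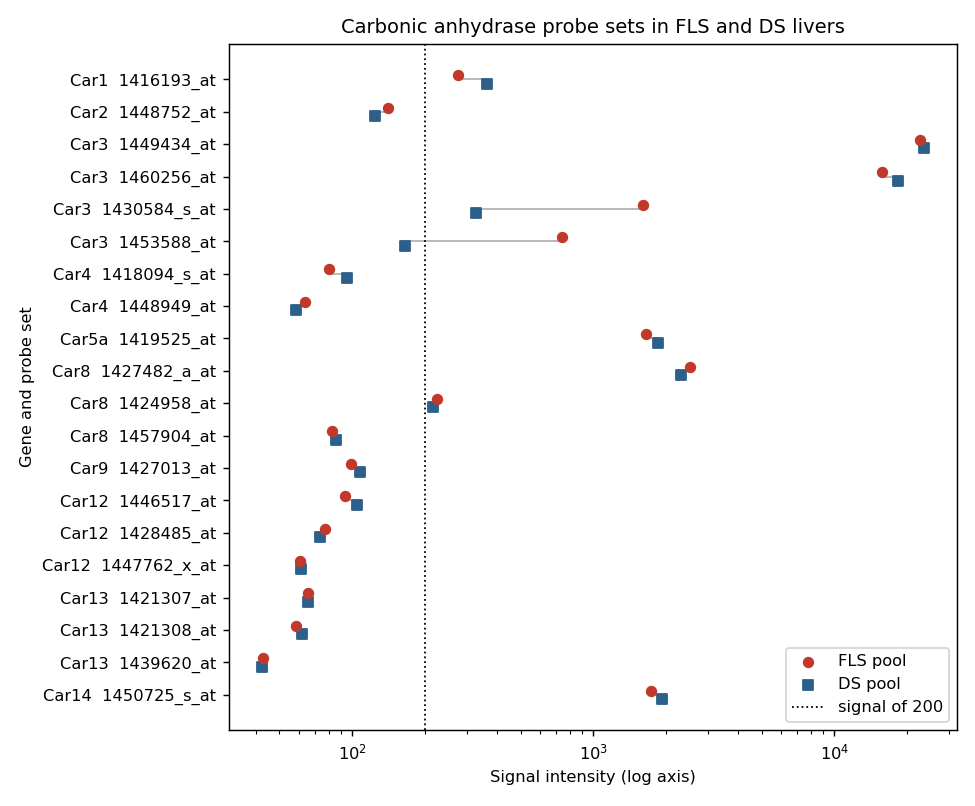
Signal intensity (log axis) of all 20 probe sets of the 10 carbonic anhydrases with FLS livers as circles and DS livers as squares (1 pool each), and a dotted line at 200. The paired symbols lie close together for all probe sets but 2 of Car3, whose FLS signals of 1606 and 744 lie far to the right of their DS signals of 327 and 166.

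Car3 had the brightest probe sets of the family and its only differences of 2-fold or more. Its brightest probe set, 1449434_at, had a signal of 22772 in FLS against 23623 in DS livers, giving a ratio of 0.964. It was the 18th brightest of all 45101 probe sets on the FLS array and the 17th on the DS array. The second probe set annotated with the same reference transcript, 1460256_at, had a signal of 15819.7 in FLS against 18338 in DS livers, giving a ratio of 0.863. On both of these probe sets the FLS signal was slightly below the DS signal, and on the brighter one this turned round after division by Actb.

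The other pair of Car3 probe sets had a far higher signal in FLS livers. Probe set 1430584_s_at had a signal of 1606 in FLS against 327 in DS livers, giving a ratio of 4.91. Probe set 1453588_at had a signal of 744 in FLS against 166 in DS livers. As the DS signal lay below 200, its raw ratio of 4.48 is replaced by a bound: with that signal set to 200, this probe set was at least 3.72-fold higher in FLS livers. Both probe sets were annotated with a single accession, BB213876, which differs from the reference transcript of the brighter pair, NM_007606. The 2 probe sets of an accession thus gave like ratios, and the pairs differed from each other. The probe sets of a pair may share sequence and are not independent measurements of Car3.

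The bright and the dim pair occupied different parts of the signal range. The bright pair stood above at least 99.8% of the array in both pools. The dim probe set 1430584_s_at stood above 94.0% of the array in the FLS pool, against 77.8% in the DS pool, and 1453588_at above 88.1% in the FLS pool against 61.5% in the DS pool.

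Ratios were narrow at the top of the signal range. Among the 89 probe sets with a mean signal of at least 15000, the ratios ran from 0.591 to 1.49 with an SD of 0.15 on the log2 scale, and 0 reached a 2-fold difference in either direction. Among the 3386 probe sets with a mean signal from 1000 to 5000, the SD was 0.54 and 4.93% differed at least 2-fold. Between 200 and 1000, where the dim Car3 pair lies, the SD was 0.40 over 10580 probe sets and 2.64% differed at least 2-fold. Whether the bright Car3 probe sets still respond in proportion to RNA at such signals was not tested.

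**Figure D2:**
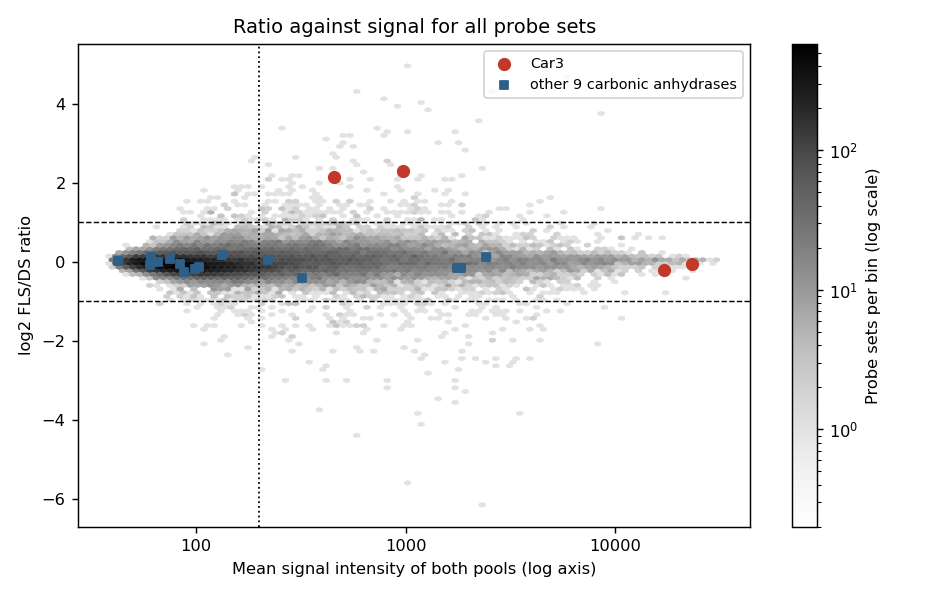
Log2 FLS/DS ratio against the mean signal intensity of both pools (log axis) for all 45101 probe sets, shaded by number per bin, with Car3 as circles and the other 9 carbonic anhydrases as squares. The dashed lines mark 2-fold differences and the dotted line a signal of 200; 2 Car3 probe sets lie above the upper dashed line and 2 lie near 0 at the right end, where the cloud is narrow.

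The Car3 probe sets were also set under other scalings of the arrays, of which median centring and division by Actb shift all ratios alike and cannot change their order. Under quantile normalization, median centring, loess, division by Actb or an offset of 50, the ratio of 1430584_s_at ranged from 4.39 to 5.66. For 1453588_at, whose DS signal stayed below the limit (raised by 50 together with the signals under the offset), the lower bound ranged from 3.17-fold to 4.29-fold. That of 1449434_at ranged from 0.964 to 1.11 and that of 1460256_at from 0.855 to 0.995. The brightest probe set was below 1 in all of these but division by Actb, where it was 1.11.

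**Figure D3:**
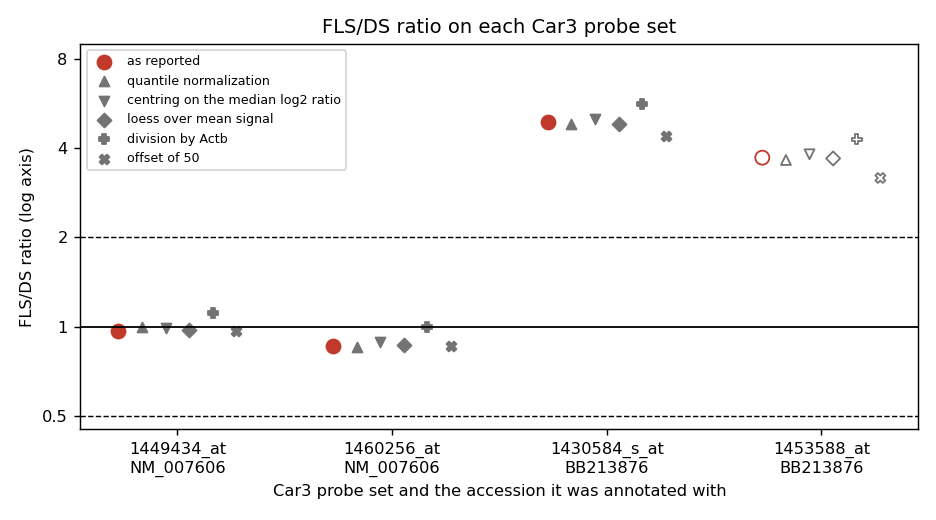
FLS/DS ratio (log axis) of the 4 Car3 probe sets, labelled with their accessions, as reported (large circles) and under 5 other scalings or offsets (small symbols), with dashed lines at 2-fold differences and open symbols for lower bounds, where the DS signal was below the limit. The NM_007606 pair lies between 0.855 and 1.11, 1430584_s_at between 4.39 and 5.66, and the bounds of 1453588_at between 3.17 and 4.29.

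A gap of this size between the probe sets of 1 gene was rare on these arrays. The highest and lowest Car3 ratios were 5.69-fold apart, or 2.51 on the log2 scale. Of 3209 genes with more than 1 measured probe set, 4 had a larger gap (Meg3, Ctse, Ccnd1 and Aqp4), the median gap was 0.20, and 61 genes (1.90%) had a probe set with an at least 2-fold difference beside another within 1.5-fold of 1. Car8, the other family member with more than 1 measured probe set, had a gap of 0.07, and 18.7% of these genes had a smaller one. The position of Car3 is a description, since the gene was picked out for its gap.

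**Figure D4:**
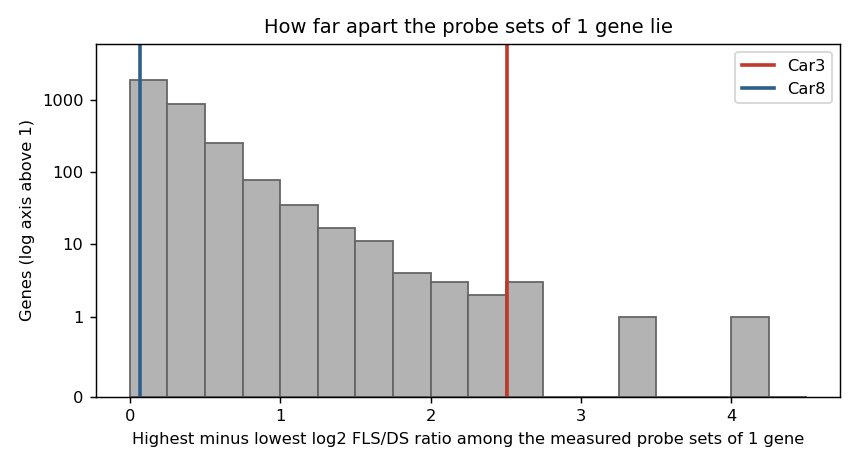
Number of genes (log axis above 1) by the difference between the highest and the lowest log2 FLS/DS ratio of their measured probe sets, for the 3209 genes with more than 1. Car3 (right line) lies at 2.51 with 4 genes beyond it, and Car8 (left line) at 0.07, below the median of 0.20.

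The genes with the most similar ratio to Car3 were sought among 101 genes measured in both pools with a mean signal within 2-fold of that of its brightest probe set. The nearest were Clu, which encodes the extracellular chaperone clusterin, with a ratio of 0.964, the fatty acid transporter gene Slc27a2 with 0.968, the complement gene C8g with 0.969, the mitochondrial complex I gene ND5 with 0.957 and the apolipoprotein gene Apoc1 with 0.956. Of these 101 genes, 22 had a lower ratio than Car3, and the range was 0.591 to 1.66. This likeness rests on 1 ratio from 2 pools.

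Car5a, which encodes the mitochondrial carbonic anhydrase of liver, had a signal of 1663 in FLS against 1851 in DS livers, giving a ratio of 0.898 on its single probe set. Car14 encodes a membrane-bound enzyme with its active site outside the cell, found on the plasma membrane of mouse hepatocytes. It had a signal of 1739 in FLS against 1930.4 in DS livers, giving a ratio of 0.901, also on a single probe set. Both genes thus had slightly lower signals in FLS livers, and both ratios lay above 1 after division by Actb, at 1.04 each. Of the 9160 measured genes, 23.9% had a lower ratio than Car5a and 24.5% a lower ratio than Car14.

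Car8 encodes a carbonic anhydrase-related protein without catalytic activity, which binds the inositol trisphosphate receptor in neurons. Its brightest probe set had a signal of 2531 in FLS against 2320 in DS livers, giving a ratio of 1.09. The second, close to the limit of 200, had a signal of 226 in FLS against 217 in DS livers, giving a ratio of 1.04. The third lay below the limit, with 82.3 in FLS against 85.6 in DS livers. Car8 was the 1 measured member with a ratio above 1, and it stayed above 1 under the 4 other scalings, from 1.08 to 1.26.

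Car1 encodes a cytosolic enzyme best known from red blood cells and the colon. Its single probe set had a signal of 275 in FLS against 362 in DS livers, giving a ratio of 0.761, the lowest of the family. It was below 1 under the 4 other scalings, from 0.740 to 0.877, and 7.49% of the measured genes had a lower ratio. Its signals were the lowest among the 5 measured members, just inside the limit. Red blood cell markers had a mixed pattern beside it. Alas2, the erythroid enzyme of heme synthesis, had a signal of 847 in FLS against 5423 in DS livers, giving a ratio of 0.156. Klf1, an erythroid transcription factor, had a ratio of 0.965 and Tspan33 of 1.03. The other 5 of the 8 markers on the array were below 200 in both pools, among them Slc4a1, the red cell anion exchanger, with 103 in FLS against 117 in DS livers. The hemoglobin gene Hba-a1, with 52.7 in FLS against 52.1 in DS livers, and Hba-a2, with 112 in FLS against 147 in DS livers, were also among these 5. The summed signal of the 8 markers was 2051 in FLS against 6691 in DS livers, and without Alas2 it was 1205 in FLS against 1269 in DS livers. Both sums include signals below 200. The list held 14 names, of which 8 were matched to a probe set annotated with a single gene. Any hemoglobin probe set that also names another gene was left out. The low hemoglobin signals and both sums thus do not measure the red blood cell content of the pools. The part of red blood cells in the Car1 value was not tested.

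Car2, the fast cytosolic enzyme of many tissues including red blood cells and bile ducts, was the member just outside the limit, with a signal of 141 in FLS against 125 in DS livers. Car4, a membrane-anchored enzyme known from capillary endothelium, had signals of 80.1 and 63.5 in the FLS pool and of 95.2 and 58.7 in the DS pool on its pair of probe sets. Car9, a transmembrane enzyme induced by hypoxia, had a signal of 99.0 in FLS against 107 in DS livers. Of these signals, that of Car2 in FLS livers alone was above the median of its array.

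Car12, another transmembrane enzyme, had signals of 93.2, 76.9 and 61.0 in the FLS pool and of 105, 73.4 and 61.6 in the DS pool on its 3 probe sets. Car13, a cytosolic enzyme, had signals of 65.9, 58.8 and 42.6 in the FLS pool and of 65.7, 61.7 and 42.2 in the DS pool on its 3 probe sets. Over the 11 member probe sets below the limit, 1 of Car8 included, the signals were 42.6 to 141 in FLS livers and 42.2 to 125 in DS livers. No ratio is given for them, and such signals do not show that the transcripts are absent. The 6 remaining carbonic anhydrases of the array, Car5b, Car6, Car7, Car10, Car11 and Car15, which are not members, were likewise below 200 on all 10 of their probe sets, at 59.5 to 129 in FLS livers and 62.7 to 139.7 in DS livers.

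Car13, Car1, Car3 and Car2 are neighbours in this order among the protein-coding genes of the mouse reference annotation (GRCm38). Of these 4, Car13 and Car2 were below the limit, Car1 had a ratio of 0.761, and Car3 had the disagreeing values above. The protein-coding genes before Car13 are Rbis, with 1743 in FLS against 1907 in DS livers (ratio 0.914), E2f5, with 266 in FLS against 346 in DS livers (ratio 0.769), and Lrrcc1, below 200 in both pools. Neither of these measured neighbours had a 2-fold difference.

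Enzymes that use bicarbonate were set beside the family. Of 8 such genes, all measured, 1 was lower in FLS livers by at least 2-fold and none was higher by as much, and the median log2 ratio was 0.02, or 0.22 after division by Actb. The lower one was Mccc1, a subunit of methylcrotonyl-CoA carboxylase, at 456 in FLS against 1764 in DS livers (ratio 0.258), although its 2 measured probe sets were 1.55 apart on the log2 scale. Acaca, the acetyl-CoA carboxylase of fatty acid synthesis, had a fold change of 0.513, Acacb, its mitochondria-associated form, of 1.71, and Pcca, a subunit of propionyl-CoA carboxylase, of 0.807. Cps1, which takes bicarbonate into the urea cycle, had a ratio of 1.04 and the pyruvate carboxylase gene Pcx of 1.12. Of 12 measured genes of ammonia handling and the urea cycle, none reached a 2-fold difference in either direction, and the median log2 ratio was 0.03. The ammonium transporter gene Rhbg had a ratio of 1.68, Nags of 1.48, the glutamine synthetase gene Glul of 1.45 and the argininosuccinate lyase gene Asl of 0.644.

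Of 22 bicarbonate and proton transporters on the array, 7 were measured and none was 2-fold different in either direction. Their median log2 ratio was 0.0031 as reported, -0.02 under quantile normalization, 0.04 under median centring and 0.01 under loess. After division by Actb, 8 were measured, with a median of 0.32, or 0.20 with bounds. The sodium bicarbonate cotransporter gene Slc4a4 had a ratio of 1.26, the monocarboxylate transporter gene Slc16a1 of 1.22 and Slc4a11 of 0.824. Slc26a4, an anion exchanger gene, had a signal of 296 in FLS against 145 in DS livers, so that it was at least 1.48-fold higher. Of 15 target genes of the hypoxia-inducible factor, the regulator of Car9, 11 were measured, none was at least 2-fold higher and 1 was at least 2-fold lower. This was Pdk1, an inhibitory kinase of pyruvate dehydrogenase, with a ratio of 0.365. P4ha1 had a ratio of 0.568 and Kdm3a of 1.38, while Pfkfb3, with 148 in FLS against 255 in DS livers, had a ratio of at most 0.785. These counts rest on the brightest probe sets. Ndrg1 had a ratio of 1.18 on its brightest, but its 3 measured probe sets ran from -0.35 to 1.54 on the log2 scale, bounds used. The median of these targets was 0.0015 on the log2 scale and lay on either side of 0 under other scalings, from -0.04 to 0.21.

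Genes that are higher in male mouse liver, as Car3 is in rats, had a median of -0.35 on the log2 scale (12 genes measured), with 1 gene higher by at least 2-fold in FLS livers and 2 lower, or 1 lower after division by Actb. The lower ones were Ugt2b38, with a ratio of 0.216, and the oxysterol hydroxylase gene Cyp7b1, with 0.484. Moxd1, with 56.1 in FLS against 361 in DS livers, had a ratio of at most 0.553. The higher one was the fatty acid elongase gene Elovl3 with 2.02, which fell short of a 2-fold difference under loess. Of 5 measured genes that are higher in females, 1 was lower by at least 2-fold and none higher by as much, with a median of -0.23, or -0.11 with bounds. This was Cyp2b13, with 89.8 in FLS against 737 in DS livers (a ratio of at most 0.271), while Cyp2b9 had a ratio of 0.792, and Fmo2 and Cux2 lay close to the limit in both pools. The sex of the mice is not given in the labels used here. The median of the male list was -0.15 and that of the female list was -0.02 after division by Actb.

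In rats, Car3 protein is found mainly in hepatocytes around the central vein. Of 14 pericentral genes, 13 were measured, and all 13 had a ratio above 1, as reported and under the 4 other scalings, with 1 higher by at least 2-fold (2 after division by Actb) and a median log2 ratio of 0.61, or 0.57 with bounds. The aryl hydrocarbon receptor gene Ahr had a ratio of 2.44, the ornithine aminotransferase gene Oat of 1.74 and the vitamin C synthesis gene Gulo of 1.73, and Tbx3 was at least 1.46-fold higher, with 291 in FLS against 163 in DS livers. The bright Car3 pair, at 0.964 and 0.863, lay below all 13, of which the lowest, Cyp2e1, had 1.06, and the dim pair, at 4.91 and at least 3.72, lay above all 13, of which Ahr was the highest. Of 8 measured periportal genes, 1 was at least 2-fold higher and none lower (2 higher after division by Actb), with a median of 0.06. This was Cdh1, which encodes E-cadherin, at 1292 in FLS against 124 in DS livers, at least 6.46-fold higher. Aldh1b1 had a ratio of 1.80, Hal of 1.11 and Ass1 of 1.35, the last on a dim probe set because the brighter one is annotated with a second gene and was not used. The periportal genes were evenly split, with 4 ratios above 1, all named here, and 4 below 1, from 0.907 to 0.983. After division by Actb all 8 were above 1.

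**Figure D5:**
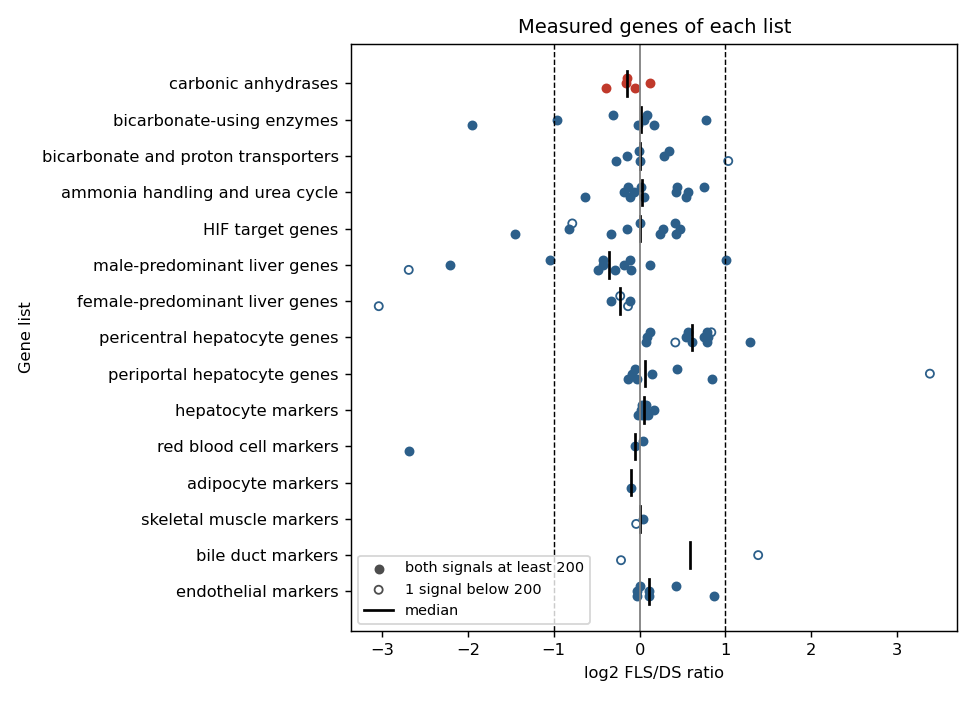
Log2 FLS/DS ratio of every measured gene of the carbonic anhydrases (top) and of the gene lists set beside them, except the kidney and gut epithelial markers. Short bars mark the medians and dashed lines 2-fold differences. Open circles are genes with 1 signal below 200, and they and the medians are drawn from raw ratios, not bounds. The 5 carbonic anhydrases lie between -0.39 and 0.13, each on its brightest probe set, and the 13 pericentral genes all lie above 0.

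Markers of fat and skeletal muscle, other tissues rich in Car3, were mostly below the limit on the arrays. Of 7 adipocyte markers, 1 was measured, Fabp4, with 327 in FLS against 350 in DS livers, while Adipoq, which encodes adiponectin, stood at 60.7 in FLS against 63.4 in DS livers. The summed signal of these markers was 940 in FLS against 1013 in DS livers. Of 11 skeletal muscle markers, 2 reached 200 in 1 pool or both, Ckm with 198 in FLS against 203 in DS livers, and Mb with 213 in FLS against 207 in DS livers, and Acta1 stood at 102 in FLS against 111 in DS livers. Their summed signal was 1299 in FLS against 1399 in DS livers. Both sums consist mostly of signals below the limit, and the part of these tissues in the Car3 values was not tested.

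Cells that carry other members were also looked at. Of 5 bile duct markers, 2 were measured: Sox9, with 365 in FLS against 140 in DS livers, was at least 1.83-fold higher, and Epcam had 182 in FLS against 211 in DS livers, while Krt19 and Krt7 were below 100 in both pools. Their summed signal was 779 in FLS against 594 in DS livers, and Sox9 was the only large difference among them. Apart from Epcam in DS livers, the signals of the other markers were all below 200. Of 10 endothelial markers, 7 were measured and none differed 2-fold, although 1 was higher by that much after division by Actb, with a median log2 ratio of 0.11. Tek had a ratio of 1.83, Stab2 of 1.34, Clec4g of 1.08 and Ptprb of 1.08, and the summed signal was 7738 in FLS against 7046 in DS livers. Of the 7 endothelial markers, 5 had a ratio above 1 and 2 below, at 0.976 and 0.977. The number above 1 was 4 under quantile normalization and 7 after division by Actb. Of 8 kidney and gut epithelial markers, 1 was measured, the intestinal fatty acid binding protein gene Fabp2, which liver also expresses. Its signal was 2001 in FLS against 3795 in DS livers. The summed signal was 2687 in FLS against 4560 in DS livers, most of it from Fabp2, and the other 7 markers were below 200.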

How the data were processed

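Total liver RNA of 3 mice per strain was pooled, and each pool was measured on 1 Affymetrix mouse genome array. The authors normalized the arrays and summarized probe sets with the MBEI (PM-only) model, and deposited linear signal intensities. Of tools, the submitters' processing notes name affy (no version). How both arrays were brought to a common scale is not stated in the sources used.

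Ratios of FLS to DS signals were computed for 45101 probe sets. The platform annotation gave 1 symbol to 34958, several to 932 (not used) and none to 9211, and gene numbers brought symbols up to date for 34754. The members and lists were chosen with earlier results of these data known. Of 199 list names, 171 were on the array. Named were all members, the other carbonic anhydrases, up to 4 measured genes of each list with the largest absolute log2 ratio and the 5 genes nearest to Car3. Cps1, Pcx, Cyp2e1, neighbours of the family, genes with large gaps and markers below 200 were named after their values were seen.

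Alternatives were quantile normalization, median centring, loess (fraction 0.4), division by Actb, an offset of 50, the median over probe sets (also with bounds, added after seeing the data), omission of _x_at and _s_at probe sets, signal limits of 100 and 500, and ratios of 1.5 and 3. The calculations were tested on simulated data. Software was matplotlib 3.10.9, statsmodels 0.14.6, pandas 2.3.3 and numpy 2.4.6 under Python 3.11.15. The number of arrays, 2, limits the precision, and pooling leaves no measure of the spread between mice. Probe sequences were not used here.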

Additional observations from a re-analysis of the deposited data

How the results depend on the processing

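Without replicates, a log2 ratio or median counts as moved beyond a shift of 0.22, the pooled SD between probe sets of 1 gene measured in both pools (2790 genes). The log2 ratio of Car3 was -0.05 on its brightest probe set and moved to 1.05 as the median over its 4 probe sets, to 2.30 on 1430584_s_at and to 2.16 on 1453588_at, the last a raw value over a DS signal below 200 whose bound is at least 1.89. With the median over probe sets, the number of members at least 2-fold higher in FLS livers was 1 (Car3) in place of 0. This call rests on that raw value: in an alternative chosen after seeing the data, the median over measured probe sets with bounds, Car3 had a log2 ratio of at least 0.92, or 1.89-fold, and the number was 0. The counts of members at least 2-fold higher and lower were otherwise 0 under every setting tried. The median log2 ratio of measured members did not move beyond the SD of 0.22. Division by Actb, which raised all log2 ratios by 0.21, could not move the median by this rule, but turned it to 0.05. Of 31 alternative values of Car1, Car5a, Car8 and Car14, 0 moved, and the members below the limit are not counted. Many of these could not move. Division by Actb and median centring shift all ratios by 0.21 or less. Car1, Car5a and Car14 have 1 probe set each, so a median over probe sets leaves them unchanged. The same holds for Car1 and Car5a without _x_at and _s_at probe sets. For these settings the count of 0 was fixed in advance. Car14 has no value without _s_at probe sets.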
